A study of Homo sapiens with 30 samples.

Results

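The CDK inhibitor genes were followed through 5 lists of chromatin peaks to see whether they carried H3K27me3, the histone mark laid down by Polycomb, or H3K9me3, the mark of constitutive heterochromatin, and whether those peaks were still called after depletion of long noncoding RNAs. The 7 genes, CDKN1A, CDKN1B, CDKN1C, CDKN2A, CDKN2B, CDKN2C and CDKN2D, were chosen by name among 20098 protein-coding genes on chromosomes 1 to 22 and X. A peak was assigned to a gene if it overlapped, by at least 1 bp, the gene's span on hg19 or the 20 kb on either side of it, an interval called the window here. CDKN2A and CDKN2B lie side by side and share 1 locus, so the 7 windows form 6 loci.

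The study used HEK293T, a human embryonic kidney line that expresses large T antigen of SV40. Cells received antisense oligonucleotides (ASOs) against LINC00641, SETD5-AS1 or LINC00662, or a control ASO (NC), for 48 h, and chromatin was precipitated with an antibody to H3K27me3 or H3K9me3 beside matching input. The 30 samples form 10 groups of 3 replicates, but each of the 5 deposited lists holds peaks called on merged replicates. H3K27me3 was profiled in NC, ΔLINC00641 and ΔSETD5-AS1 cells, which share 1 NC list, and H3K9me3 in NC and ΔLINC00662 cells with an NC of their own. The track lines name ASO2 for LINC00641, ASO1 for SETD5-AS1 and a mix for LINC00662, for which 3 ASOs are listed. All groups are the same cell line, in which large T already binds the RB family, proteins through which CDK inhibitors act. With 1 list per group the spread of replicates cannot be seen and groups could not be tested against each other, so every value below is a description. Fewer cells carrying a mark and less mark per cell cannot be told apart in bulk chromatin.

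CDK inhibitors hold cells in G1 by blocking cyclin-dependent kinases. The INK4 family (CDKN2A, CDKN2B, CDKN2C and CDKN2D) binds CDK4 and CDK6, while the CIP/KIP family (CDKN1A, CDKN1B and CDKN1C) binds cyclin-CDK complexes more broadly. Polycomb repressive complex 2 methylates H3K27, often over CpG-rich promoters of silent genes, and the CDKN2A/CDKN2B locus is a textbook Polycomb target in proliferating fibroblasts, where the antisense transcript CDKN2B-AS1 (ANRIL) has been tied to its silencing. CDKN1C is an imprinted gene, expressed mainly from the maternal copy, in a domain on chromosome 11 that also holds the imprinted gene PHLDA2.

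The ASO sequences of the compared groups are shown because they define the treatments, and ASOXNC23 is the control. They were read from the study's oligonucleotide table and are written 5′ to 3′, with no letters in capitals.
LINC00641-ASO-2: gatagtggtatagtaactgg
SETD5-AS1-ASO-1: atcaatgaggatgtcatcac
LINC00662-ASO-1: tgtagtctcttatctgcacc
LINC00662-ASO-2: actctgtctcaaataacttg
LINC00662-ASO-3: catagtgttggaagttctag
ASOXNC23: ttctccgaacgtgtcacgtt

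The next sequence is the part of the stronger H3K27me3 peak of CDKN1C that lies in an intron, shown since the H3K27me3 peaks of CDKN1C were the only ones called at any CDK inhibitor gene. It was read from the hg19 genome on the minus strand, CDKN1C's own strand, with each CpG in capitals. It is chr11:2905146-2905228, 83 bases of intron with 10 CpGs.
CDKN1C H3K27me3 peak 1: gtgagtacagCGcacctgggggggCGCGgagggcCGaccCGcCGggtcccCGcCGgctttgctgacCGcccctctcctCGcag

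The 200 bases from 210 to 11 bases before the start of the MANE transcript, the reference transcript of each gene, are shown for CDKN2A and CDKN2B, the textbook targets that had no H3K27me3 peak. Both are on the minus strand of hg19, at chr9:21974867-21975066 and chr9:22009315-22009514, and hold 17 CpGs each, again in capitals.
CDKN2A upstream: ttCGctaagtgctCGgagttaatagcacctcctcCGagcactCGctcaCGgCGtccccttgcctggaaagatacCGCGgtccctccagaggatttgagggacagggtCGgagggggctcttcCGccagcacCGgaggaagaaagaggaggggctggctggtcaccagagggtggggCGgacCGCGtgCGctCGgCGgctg
CDKN2B upstream: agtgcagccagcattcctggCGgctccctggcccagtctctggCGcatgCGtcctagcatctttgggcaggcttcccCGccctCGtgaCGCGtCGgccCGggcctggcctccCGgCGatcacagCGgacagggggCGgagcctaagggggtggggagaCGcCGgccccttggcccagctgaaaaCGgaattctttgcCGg

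For H3K27me3, 86099 (ΔLINC00641), 98401 (ΔSETD5-AS1) and 102921 (NC) peaks were listed, and for H3K9me3 60273 (ΔLINC00662) and 84170 (NC). Depth differed between lists, with a genome-wide level of 3.50 to 4.43 fragments a position. The fragments at each peak summit were recovered from the deposited fold enrichment and −log10 p, and their 95% exact Poisson intervals cover counting error only. Where the input was at its genome-wide level, the weakest called peaks had 11 or 12 fragments and a fold enrichment over input of 2.39 to 2.66, so a summit below these values was not detectable.

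For 6 of the 7 CDK inhibitors no H3K27me3 peak was called in the window, so the lists gave no call that marks them as Polycomb targets. A missing call cannot be read as the absence of Polycomb, since in NC only 1 of 39 HOX genes had a window peak. In NC, 1 of the 7 genes, CDKN1C, had an H3K27me3 peak in its window, while 22.9% of all protein-coding genes did. No member had one in ΔLINC00641, where 23.1% of all genes did, or in ΔSETD5-AS1, where 23.6% did. The other 6 genes, among them CDKN2A and CDKN2B, had no H3K27me3 peak in any of the 3 lists, as was the case for 71.1% of all genes. For H3K9me3, 3 of the 7 genes had a window peak in NC, namely CDKN1B, CDKN2A and CDKN2C, beside 54.6% of all genes. In ΔLINC00662 there were 2 genes, CDKN2A and CDKN2C, beside 46.8% of all genes. With equal numbers of the strongest peaks in both H3K9me3 lists there were 2 genes in each. No member had called window peaks of both marks, and CDKN1A, CDKN2B and CDKN2D had called window peaks of neither. CDKN1B was the 1 member with a window peak in NC and none in ΔLINC00662, as did 21.8% of the genes that had one in NC, and no member gained one, beside 9.20% of the genes without. With 7 genes, 1 gene more or less moves each of these shares widely, and none of them was tested against the share of all genes.

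Among the INK4 genes, CDKN2A (ENSG00000147889, chr9:21967751-21995300) encodes p16INK4a and, from an alternative first exon, p14ARF. No H3K27me3 peak was called in its window in any list. The nearest one to its MANE start lay 436873 bp away in NC, 520742 bp in ΔLINC00641 and 686953 bp in ΔSETD5-AS1, and these 3 peaks were at different places. In NC, 74.3% of protein-coding genes had a nearer H3K27me3 peak than CDKN2A.

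CDKN2A did have called H3K9me3 peaks. In NC the peak chr9:21969254-21969946 reached a fold enrichment of 3.21 with 16 fragments at the summit (95% interval 9.15 to 26.0) and a −log10 q of 3.25. Its summit lay 5096 bp downstream of the start of the p16INK4a transcript and 706 bp downstream of an alternative start. It fell in an exon that is coding in an annotated CDKN2A transcript, which need not be that of p16INK4a. By −log10 q, 30.6% of the peaks in that list were weaker. In ΔLINC00662 the peak chr9:21970231-21970899 reached 4.16-fold with 19 fragments (11.4 to 29.7) and a −log10 q of 5.29, with its summit in an untranslated exon of an alternative transcript. Both lists thus held 1 peak in the body of CDKN2A, but the peaks did not overlap and lay 284 bp apart. The input stood at 1.00 and 1.09 times its genome-wide level there, and the intervals of the fragment numbers overlapped. The antisense lncRNA gene ENSG00000264545 spans both peaks as an intron, so the mark could not be assigned to 1 gene.

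CDKN2B (ENSG00000147883, chr9:22002902-22009304), which encodes p15INK4b, had no peak of either mark in its window. Its nearest H3K27me3 peaks were 471321, 486294 and 652505 bp from the start in NC, ΔLINC00641 and ΔSETD5-AS1, the same peaks as for CDKN2A. Its nearest H3K9me3 peaks were those in CDKN2A, 39358 bp away in NC and 38405 bp in ΔLINC00662. CDKN2B-AS1, whose gene overlaps both windows, had no H3K27me3 peak in a window of its own in any list. It had 1 H3K9me3 peak in NC, outside the windows of CDKN2A and CDKN2B, with 3.40-fold and 17 fragments, and none in ΔLINC00662.

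CDKN2C (ENSG00000123080, chr1:51426417-51440306), encoding p18INK4c, also had no called H3K27me3 peak in its window. The nearest lay 597809, 599225 and 598465 bp upstream in NC, ΔLINC00641 and ΔSETD5-AS1. Its window held 2 intergenic H3K9me3 peaks in NC, both beyond the 3′ end of the gene. The stronger, chr1:51457392-51458056, had a fold enrichment of 3.11 and 36 fragments (25.2 to 49.8) at an input of 2.54 times the genome-wide level. The other, chr1:51458672-51458977, had 3.93-fold and 20 fragments (12.2 to 30.9) and lay 1329 bp inside the window's edge. In ΔLINC00662 neither was called, and a different peak, chr1:51452850-51453164, had 1.98-fold and 24 fragments (15.4 to 35.7). Only 1.42% of the ΔLINC00662 peaks were weaker than it, and the input there was 3.32 times the genome-wide level. On the other side of the gene, the ΔLINC00662 peak chr1:51397878-51398768 missed the window by 7648 bp.

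CDKN2D (ENSG00000129355, chr19:10677136-10679735), encoding p19INK4d, had no called peak of either mark in its window, and its surroundings were the poorest in H3K9me3 peaks of the 7 genes. Within 500 kb of its start there were 2 H3K9me3 peaks in NC and 0 in ΔLINC00662, while the median over all genes was 20 and 13. The nearest H3K9me3 peak moved from 154164 bp in NC to 647752 bp in ΔLINC00662, and 99.5% of genes had a nearer one in the latter list. Its nearest H3K27me3 peak lay 277811, 277721 and 278004 bp downstream in NC, ΔLINC00641 and ΔSETD5-AS1 and was called in the same place in all 3 lists. That peak, named after its values were seen, lies in ICAM5, with 38, 53 and 39 fragments and a fold enrichment of 2.93, 4.29 and 1.74.

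Among the CIP/KIP genes, CDKN1A (ENSG00000124762, chr6:36644237-36655114), which encodes p21, had no peak of either mark in its window. The nearest H3K27me3 peak lay 160383, 160270 and 160484 bp downstream in NC, ΔLINC00641 and ΔSETD5-AS1. It too was in the same place in all 3 lists, in CPNE5, a gene named after its values were seen, with 31, 27 and 29 fragments. The nearest H3K9me3 peak was 154705 bp away in NC and 202622 bp in ΔLINC00662, farther than for 91.0% and 90.2% of protein-coding genes.

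CDKN1B (ENSG00000111276, chr12:12838432-12875303) encodes p27. Its annotated span starts well before the MANE start at position 12870302 and overlaps GPR19, so that its window of 76872 bp is the longest of the 7. There was no H3K27me3 peak in it. The nearest lay 506004 bp away in NC, 127116 bp in ΔLINC00641 and 555747 bp in ΔSETD5-AS1, and each list had a different peak there. The ΔLINC00641 peak, chr12:12742509-12743186, had a fold enrichment of 1.93 and a −log10 q of 1.44, close to the lowest in its list, 1.30.

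In H3K9me3, CDKN1B had 1 weak peak in NC, chr12:12848075-12848500, with 2.01-fold, 21 fragments (13.0 to 32.1) and a −log10 q of 1.43. Only 1.31% of the peaks of that list were weaker. Its summit, in an untranslated exon of GPR19 and an intron of CDKN1B, was 21898 bp upstream of the MANE start. No peak was called in the window in ΔLINC00662, where the nearest outside it, chr12:12817545-12817835, missed the edge by 596 bp.

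CDKN1C (ENSG00000129757, chr11:2904443-2907005), which encodes p57, was the only CDK inhibitor gene with a called H3K27me3 peak in its window. NC had 2 peaks in the gene body, which together covered 1.30% of its window of 42563 bp. Over all protein-coding genes the median covered share in NC was 0, since 77.1% of them had no peak in the window, and the mean was 1.59%. The peak chr11:2905025-2905298 had a fold enrichment of 3.27, 23 fragments at the summit (14.6 to 34.5) and a −log10 q of 4.54, and 66.4% of the list was weaker. Its summit lay in an intron 1856 bp downstream of the MANE start. The peak chr11:2906535-2906815 had 2.08-fold, 25 fragments (16.2 to 36.9) and a −log10 q of 1.90, with 8.42% of the list weaker. Its summit was 285 bp downstream of the start, in an untranslated exon. The second peak thus had as many fragments as the first, but over an input of 2.98 times the genome-wide level against 1.65 times.

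Neither CDKN1C peak was called in ΔLINC00641 or in ΔSETD5-AS1, so the H3K27me3-covered length over all 7 genes was 555 bp in NC and 0 in both knockdown lists. None of the 2 NC peaks was kept, while with 50 kb on each side, which takes in the PHLDA2 peaks, 50% were kept in each knockdown list. So few peaks allow a kept share of up to 84.2% (exact binomial 95% limit, counting error only). That limit takes the peaks as independent, although both lie in CDKN1C. Loss of a called peak was common everywhere. Of all NC H3K27me3 peaks in the windows of protein-coding genes, 44.1% had no overlapping peak in ΔLINC00641, 41.8% had none in ΔSETD5-AS1 and 28.9% had none in either. Of the genes with a window peak in NC, 14.4% had none in ΔLINC00641, 14.9% had none in ΔSETD5-AS1 and 8.22% had none in either. A peak gained by a gene without one in NC was seen at none of the 6 other members, beside 4.50% of such genes in ΔLINC00641 and 5.41% in ΔSETD5-AS1. The knockdown comparisons share the NC list and are not independent of each other.

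Peak strength was set against the same outcome. When the NC list was split into 10 equal groups by −log10 q, the first CDKN1C peak fell in group 7 from the weakest, in which 56.4% of the peaks were kept in ΔLINC00641, 59.3% in ΔSETD5-AS1 and 26.98% in neither. The second fell in group 1, in which 34.3% and 37.1% were kept and 49.4% were in neither list. At the input multiple seen in NC, a call at the first summit needed 15 fragments in NC and ΔLINC00641 and 17 in ΔSETD5-AS1. At the second summit it needed 23, 23 and 26. The NC summits, with 23 and 25 fragments, were thus 8 and 2 above what a call needed, and the Poisson interval of each reached below it. The fragments present at these places in the knockdown libraries are not given by a peak list, so the size of any change there is not known.

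**Figure D1:**
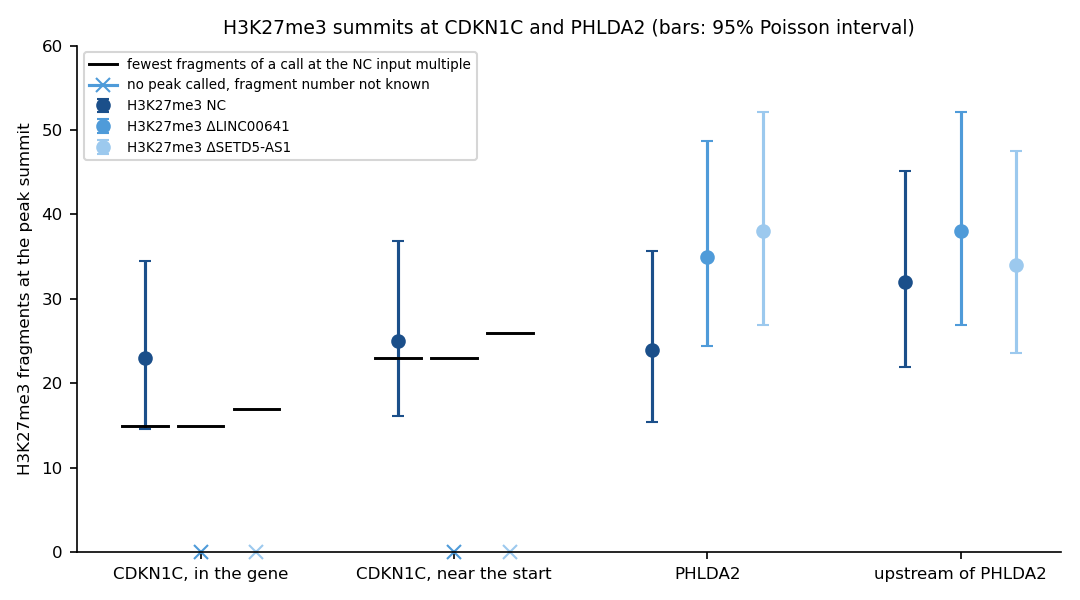
H3K27me3 fragments at the summits of the 2 CDKN1C peaks and of the 2 nearest peaks outside its window, in NC, ΔLINC00641 and ΔSETD5-AS1, with 95% exact Poisson intervals. Crosses at the foot mark lists with no peak called, for which the number is not known. Black lines mark the fewest fragments a call needed at the input multiple seen in NC, and the input multiple at these places in the knockdown lists is not known. The intervals of both CDKN1C peaks in NC reach below their black lines, and the PHLDA2 peaks were called in all 3 lists.

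The nearest peaks outside the CDKN1C window were kept. PHLDA2 (chr11:2949503-2950650), the imprinted gene next to SLC22A18, had a peak over the gene with 3.41-fold and 24 fragments (15.4 to 35.7) in NC, which lay 22521 bp outside the CDKN1C window. At the same place ΔLINC00641 had 3.93-fold and 35 fragments and ΔSETD5-AS1 3.66-fold and 38 fragments. The log2 ratio of fold enrichment to NC was 0.21 and 0.10, and that of fragments over each list's genome-wide level was 0.57 and 0.46. A second peak upstream of PHLDA2 had 3.93-fold in NC, 2.82-fold in ΔLINC00641 and 2.02-fold in ΔSETD5-AS1, a log2 ratio of -0.48 and -0.96. Its fragments were 32, 38 and 34. Over each list's genome-wide level, the log2 ratio of fragments to NC was 0.27 in ΔLINC00641 and -0.12 in ΔSETD5-AS1. The local input at this peak rose from 1.92 times the genome-wide level in NC to 3.39 and 3.69 times in the knockdown lists, and its part in the lower fold was not tested. In this imprinted domain H3K27me3 peaks were thus called at PHLDA2 in all 3 lists and at CDKN1C in NC only. The 2 NC peaks at and upstream of PHLDA2 were stronger, in groups 8 and 10 by −log10 q, beside 7 and 1 for CDKN1C. In group 8, 62.0% of peaks were kept in ΔLINC00641 and 65.3% in ΔSETD5-AS1, and in group 10, 88.6% and 89.5%. The part of peak strength in this contrast was not tested. Within 500 kb of the CDKN1C start the ΔSETD5-AS1 list held 5 H3K27me3 peaks, the ΔLINC00641 list 6 and the NC list 8. CDKN1C itself had no called H3K9me3 peak in its window, the nearest peaks being 51182 bp upstream in NC and 51907 bp in ΔLINC00662.

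Around start sites the H3K27me3 counts were the same as in the windows. In NC, 1 member, CDKN1C, had an H3K27me3 peak within 1 kb of an annotated start, a share of 14.3% beside 10.2% of all genes, and none had one in ΔLINC00641 (11.1% of all genes) or ΔSETD5-AS1 (10.1%). The start-site peak was absent in both knockdown lists for 9.31% of the genes that had one in NC, and 86.6% of all genes had none in any of the 3 lists, as the 6 other members. For H3K9me3, CDKN1B and CDKN2A were counted in NC, a share of 28.6% beside 8.95% of all genes, and CDKN2A in ΔLINC00662, beside 7.28%, and 5 members had none in either list, beside 88.9% of all genes. Both H3K9me3 counts came from starts of alternative transcripts. With only the 5′ end of each gene's span they were 0 and 0, while CDKN1C kept its H3K27me3 count of 1.

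For H3K9me3, the 4 NC peaks in the members' windows covered 2090 bp and the 2 ΔLINC00662 peaks 984 bp, a ratio of 0.471. The mean fold enrichment was 3.07 and 3.07, but over peaks at different places. The ΔLINC00662 mean is that of 2 unlike peaks, 4.16-fold at CDKN2A and 1.98-fold at CDKN2C, so it does not show an unchanged enrichment. None of the 4 NC peaks overlapped a ΔLINC00662 peak, which allows a kept share of up to 60.2% (exact binomial 95% limit, counting error only). That limit takes the peaks as independent, although 2 of them lie close together in the CDKN2C window. With 50 kb on each side 43.8% were kept. Over all protein-coding genes, 61.0% of the NC window peaks had no overlapping peak, and the whole list covered 54.7 Mb in NC and 32.8 Mb in ΔLINC00662. With equal numbers of the strongest peaks in both lists, the covered ratio was 0.591 and the number of members with a window peak was 2 in each, while none of the NC peaks was kept. The part of depth was not tested.

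Some genes of the same pathways had stronger H3K27me3 peaks than CDKN1C, while the shares of genes with a peak were not tested against those of the CDK inhibitors. Of 23 G1/S genes (cyclins, CDKs, the RB family, E2Fs, MDM2 and SKP2), the NC list had a window peak at 6, the ΔLINC00641 list at 4 and the ΔSETD5-AS1 list at 6. These shares of 26.1%, 17.4% and 26.1% lay near the 22.9%, 23.1% and 23.6% of all genes, and the start-site share in NC, 13.0%, was near the 14.3% of the members. CCND1 and CCND2, D-type cyclins that activate the kinases INK4 proteins block, and CCNA1, the germline cyclin A, had a start-site peak in all 3 lists. Genes of the G1/S and Polycomb lists were named for that trait, so their calls in every list follow from the choice. The strongest peak anywhere in the CCND2 window had 5.66-fold in NC, 6.16-fold in ΔLINC00641 and 3.72-fold in ΔSETD5-AS1. The strongest CCND1 peak had 6.06-fold, 6.14-fold and 4.63-fold in the same order. The strongest CCNA1 peak had 2.86-fold, 3.51-fold and 3.44-fold. In NC it had 24 fragments, beside 23 in the first CDKN1C peak, but a lower fold than the 3.27 of that peak. Of 20 genes for Polycomb subunits and H3K27 demethylases, 5, 6 and 7 had a window peak. These shares of 25%, 30% and 35% stood beside 22.9%, 23.1% and 23.6% of all genes. BMI1 and CBX8, both subunits of Polycomb repressive complex 1, had a start-site peak in all 3 lists. The strongest peak anywhere in the CBX8 window had 6.05-fold, 6.34-fold and 4.13-fold, and that in the BMI1 window 5.17-fold, 5.77-fold and 2.44-fold. These need not be the start-site peaks. The windows of CBX8 and CBX2 overlap, and the strongest peak in NC and ΔLINC00641 was the same for both, although CBX2 had no start-site peak. BMI1 is known as a repressor of the CDKN2A locus. For H3K9me3, the G1/S list had window peaks at 12 genes in NC and 8 in ΔLINC00662, and the Polycomb list at 8 and 8. That is 52.2% and 34.8% of the G1/S list and 40% of the Polycomb list each time, near or below the 54.6% and 46.8% of all genes. Of 9 neighbours of the CDKN2A/CDKN2B and CDKN1C loci, 4 had an H3K27me3 window peak in each list, PHLDA2 alone at a start site. That is 44.4%, beside 22.9% to 23.6% of all genes. For H3K9me3, 8 had one in NC and 6 in ΔLINC00662, 88.9% and 66.7% beside 54.6% and 46.8% of all genes. The windows of SLC22A18, PHLDA2 and NAP1L4 overlap and share peaks of both marks, and KCNQ1OT1 lies within KCNQ1. These neighbours were thus not counted independently of each other.

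The HOX genes were included as genes known to carry H3K27me3 in many cell types. Of 39, only 1 had a window peak in NC and 1 in ΔLINC00641, below the share of all genes, while 11 did in ΔSETD5-AS1, 28.2% beside the 23.6% of all genes. Since HOX windows overlap, these 11 genes rested on 4 distinct peaks. None of the 39 had a start-site peak in any list. They therefore gave no positive reference for calls in this cell line, and a missing call at CDKN2A or CDKN2B cannot be read as the absence of Polycomb. H3K9me3 window peaks were called at 9 HOX genes in NC and 5 in ΔLINC00662, all of them HOXD genes, on 7 and 4 distinct peaks. These shares of 23.1% and 12.8% lay below the 54.6% and 46.8% of all genes.

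**Figure D2:**
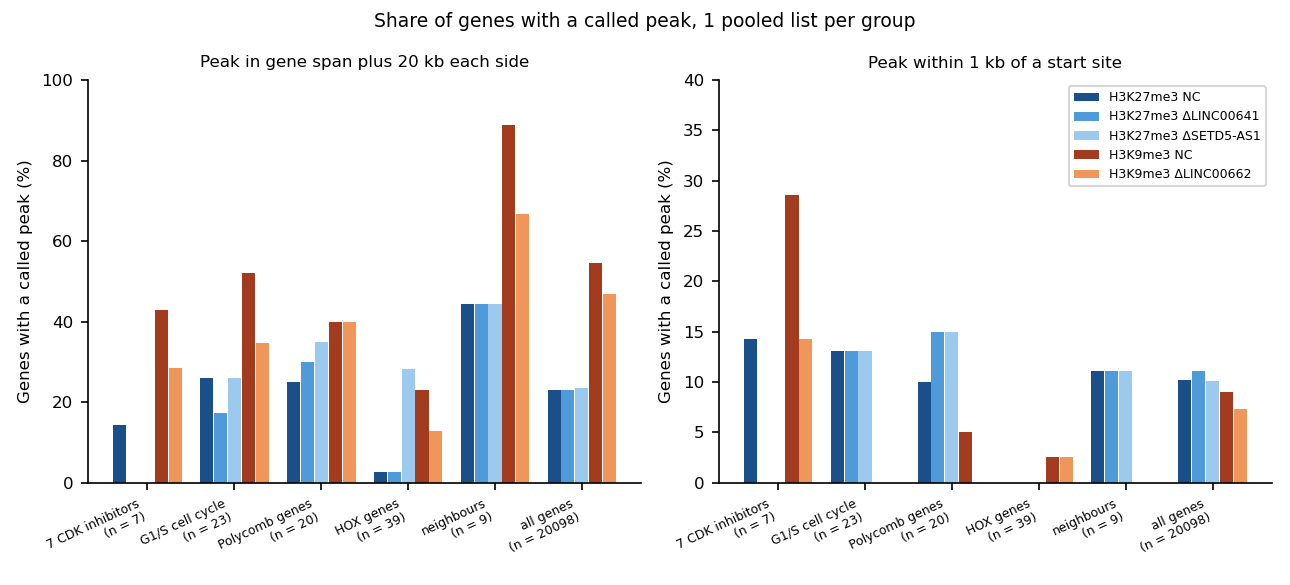
Percent of the genes of each list with a called peak in the window (left) or within 1 kb of a start site (right), 1 bar per peak list, with all 20098 protein-coding genes at the far right and no error bars because each group is 1 pooled list. For H3K27me3 the CDK inhibitors are at 1 of 7 genes in NC and at 0 in both knockdown lists, beside 22.9% to 23.6% of all genes.

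The distance from each start to the nearest peak gave a measure without a window. CDKN2A and CDKN2B share a locus and had the same nearest peak of either mark in every list, so the medians do not rest on 7 independent loci. For H3K27me3 the median over the 7 genes was 436873 bp in NC, 277721 bp in ΔLINC00641 and 555747 bp in ΔSETD5-AS1, against 177816, 174890 and 165562 bp over all genes. CDKN1C was the nearest in each list, with 190, 42263 and 42512 bp. CDKN1A was the next in NC and ΔSETD5-AS1 and lay close to the median of all genes, whereas the 4 INK4 genes were beyond it in every list. CDKN1B was on the near side in ΔLINC00641 alone. For H3K9me3 the median of the members was 39358 bp in NC and 51907 bp in ΔLINC00662, beside 31922.5 and 44362 bp over all genes. CDKN2A was the nearest to this mark in both lists and CDKN1A and CDKN2D the farthest. Across these 7 genes, those nearest to one mark were thus not those nearest to the other.

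**Figure D3:**
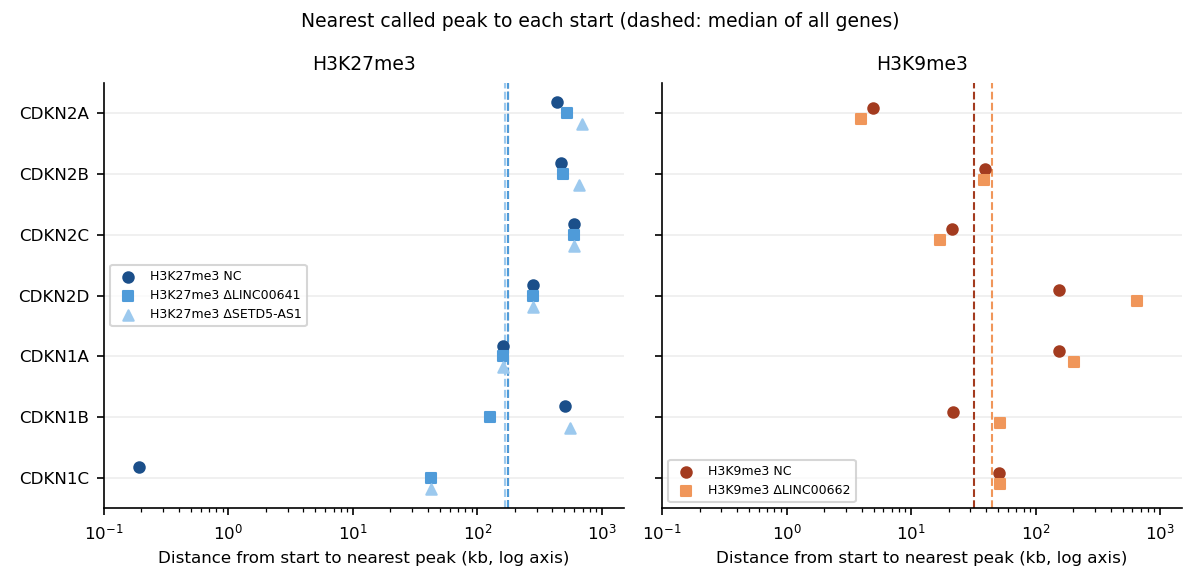
Distance in kb, on a log axis, from the MANE start of each gene to the nearest H3K27me3 peak (left) and H3K9me3 peak (right), 1 symbol per list, with dashed lines at the median of all protein-coding genes. CDKN1C moves from 0.190 kb in NC to 42.3 and 42.5 kb in the knockdown lists, and the INK4 genes lie beyond the median for H3K27me3 in every list.

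The promoters of the 7 genes differed in CpG content, which the choice of genes did not use. In the 300 bases from 250 before to 50 after the MANE start, CDKN1C had 48 CpGs, more than 97.1% of all promoters. CDKN2D had 36, CDKN1A and CDKN1B 29 each, CDKN2A 26, CDKN2B 25 and CDKN2C 11, and the median over all protein-coding genes was 23. The CDK inhibitor with called H3K27me3 peaks was thus the richest in CpG. Over all genes the order was not the same, since the 2051 genes with an H3K27me3 start-site peak in NC had a median of 17 CpGs.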

How the data were processed

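ChIP-seq for H3K27me3 and H3K9me3 and matching input was made in HEK293T cells. Per the submitters' notes, the authors used FastQC 0.11.8 for read quality, cutadapt 3.3 for trimming, Bowtie2 2.4.2 for alignment to hg19 and GATK MarkDuplicates 4.1.9.0 for duplicates, and called narrow peaks with MACS2 2.2.7.1 on merged replicates. The deposited lists give, for each peak, its coordinates, a fold enrichment over input (a ratio) and −log10 p and −log10 q values, all on 1 pooled list per group. Merging removes the spread between replicates, so depth and input shape what was called.

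The 5 lists were read with Python 3.11.15, pandas 2.3.3 and scipy 1.17.1. Gene spans and starts came from GENCODE 44 on hg19. Fragments at a summit and local input were solved from fold enrichment and −log10 p, and 100% of peaks gave whole fragments within 0.002 in −log10 p. The recovery was tested on simulated data. Intervals are exact Poisson or exact binomial (Clopper-Pearson) at 95%. All 7 genes were named in every list. Genes of comparison lists were named where they had a start-site peak in all 3 H3K27me3 lists, at most 5 a list, besides genes that a member's window overlaps, and peaks as the strongest, at a start site or nearest to the window's edge. The genes, lists and windows were chosen with earlier results of these data known. Sequences came from the hg19 genome, and figures were drawn with matplotlib 3.10.9. No value of the study's own comparisons was used. Of the G1/S list, 1 gene is not reported here.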

Additional observations from a re-analysis of the deposited data

How the results depend on the processing

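No paired analysis was possible because each list was called on pooled replicates, and for the same reason no replicate could be left out in turn. Over 16 results and 95 alternatives, 14 values moved past their counting interval or by over 1.5 times and 81 did not. These results are counts, shares and ratios that cannot be negative, so a change of sign could not occur. With so few peaks the 81 include wide shifts. With only peaks of a −log10 q of at least 5, members with an H3K27me3 peak in NC went from 1 to 0 in the window and to 0 at start sites. The same threshold left 1 member with an H3K9me3 window peak in NC and 1 in ΔLINC00662, and 0 at start sites in NC. With equal numbers of the strongest peaks, H3K9me3 window peaks stood at 2 members in NC and 2 in ΔLINC00662, and 1 member had a start-site peak in NC. With only the 5′ end of each span, 0 did in NC and 0 in ΔLINC00662. With 50 kb on each side, which takes in PHLDA2, 1 member had an H3K27me3 peak in ΔLINC00641 and 1 in ΔSETD5-AS1. The covered length was then 1.18 and 0.791 times that of NC, in place of 0. In ΔLINC00641 a covered length below that of NC thus became one above it. The share of NC peaks kept was then 50% in ΔLINC00641, 50% in ΔSETD5-AS1 and, for H3K9me3, 43.8% in ΔLINC00662, in place of 0. That window gave 4 members with a called H3K9me3 peak in ΔLINC00662, and the gene span with no flank gave 1. No pair of overlapping peaks lay inside a window, so fold enrichment was compared at pairs only with 50 kb on each side, with a median log2 ratio of -0.14 (2 pairs) in ΔLINC00641, -0.43 (2 pairs) in ΔSETD5-AS1 and 0.36 (4 pairs) in ΔLINC00662. Weak summits with under about 11 or 12 fragments could not be called at this depth.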
